A study of Mus musculus with 32 samples.

Results

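The DNA replication machinery genes described here are the mouse genes named Mcm with a number, Orc1 to Orc6, Gins1 to Gins4, the subunits of DNA polymerases alpha, delta and epsilon, Prim1 and Prim2, Rfc1 to Rfc5, Rpa1 to Rpa3, and Cdc6, Cdt1, Gmnn, Cdc45, Pcna, Fen1, Lig1 and Rrm2. The choice was made by name alone, without pseudogenes, and found 49 of the 46078 gene entries in each of the deposited expression tables. They carry 48 symbols, because Pold4 stands on 2 identifiers, of which ENSMUSG00000097508 is listed at 0 in every library. Mcm3ap shares the Mcm name through its binding to Mcm3 and is no helicase subunit. It is counted among the members, but described apart from the helicase subunits below.

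The study measured transcripts in late 1-cell embryos at 12 hours and late 2-cell embryos at 28 hours after fertilization, with and without Dppa2 or Dppa4, which encode a pair of chromatin-associated proteins of the early embryo. The letter m refers to the allele from the mother and z to that of the embryo itself, and a minus sign to its loss. The m-z+ embryos are described as mKO in total RNA. Total RNA was sequenced in 16 libraries: m+z+ controls and m-z+ embryos, at both stages, for Dppa2 on a B6/DBA mixed background and for Dppa4 on B6, with 2 libraries in each of the 8 groups. PolyA RNA was sequenced in another 16 libraries, described as single embryos: WT at both stages on B6, also described as Dppa4 controls, with 2 libraries each, and at the 2-cell stage m-z+ and m-z- for Dppa2 (mixed background) and for Dppa4 (B6), with 3 libraries each, described as Het and mzKO. All groups of the Dppa2 arm share the mixed background, so arm and background cannot be told apart. The labels do not say how the alleles were made or whether replicates came from separate animals, so p-values reflect only how these libraries vary, and that may be technical.

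Replication begins when the origin recognition complex (Orc1 to Orc6) marks DNA and Cdc6 and Cdt1 load the ring-shaped MCM helicase on it, a step that geminin (Gmnn) blocks by binding Cdt1. Cdc45 and the GINS complex then join MCM to make the active helicase, polymerase alpha with primase lays down primers, and polymerases epsilon and delta copy the strands, held by the PCNA clamp that replication factor C (RFC) loads. The mouse zygote replicates its genome with messages and proteins stored by the oocyte, and the embryo's own genome becomes broadly active at the 2-cell stage.

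Levels are in FPKM, fragments per kilobase of transcript scaled to library size, a scale per length on which genes of 1 table can be compared. The tables hold no read counts, so the depth behind a value is unknown. Differences are on the log2(FPKM + 1) scale, which understates changes of low genes. Folds are those differences turned back to a ratio of FPKM + 1, so they are smaller than ratios of the FPKM values. A gene passed when its adjusted p in limma, over all genes tested in its table, was under 0.05. Of the members, 48 entries passed the low-value filter in total RNA and 47 in polyA RNA; Pold1, the catalytic subunit of polymerase delta, was below it in polyA RNA, at 0 to 1.04 FPKM. Where a library holds more than a single cell, as 2-cell libraries do, fewer cells holding a message and less of it per cell cannot be told apart.

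Oocyte transcripts (8 listed genes) summed to 1817 to 2507 FPKM in 1-cell and 486.5 to 1206 in 2-cell total RNA, while 8 listed 2-cell transcripts went from 7.27 to 24.7 to 245.1 to 323.9. Sums over cumulus and sperm markers reached at most 18.3 FPKM in any library. The blood list summed to 1578 FPKM in replicate 3 of the polyA group labelled Dppa2 m-z- and to at most 146.9 elsewhere, with Hbb-bs and Hbb-bt at 0 in the other 15 polyA libraries. Dppa2 RNA was 9.38 and 9.52 FPKM in Dppa2 m-z+ 1-cell embryos against 32.3 and 32.7 in their controls, and Dppa4 was 0 and 1.13 in Dppa4 m-z+ 1-cell embryos against 4.37 and 6.92. In 2-cell total RNA, Dppa2 was 44.78 to 59.23 FPKM in Dppa2 m-z+ embryos and 49.69 to 52.96 in their controls. Dppa4 there was 20.26 to 25.54 FPKM in Dppa4 m-z+ embryos and 17.56 to 30.07 in controls, so both overlapped. In polyA RNA, Dppa4 was 0 to 0.149 FPKM in Dppa4 m-z- embryos, but Dppa2 was 76.5 to 154.9 FPKM in the libraries labelled Dppa2 m-z- and 63.3 to 92.4 in Dppa2 m-z+, so its RNA does not check that label.

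Between the 1-cell and the 2-cell stage most of the replication genes went down in total RNA. In Dppa2 controls 26 of 48 fell and 2 rose, where 29.9% of all 15068 genes tested fell and 31.7% rose. In Dppa4 controls 26 fell and 4 rose, against 24.2% and 24.9% of all genes. The median member changed by -0.74 and -0.65 on the log2 scale, and the median of all genes tested by 0.06 and 0.04. In m-z+ embryos 30 fell and 6 rose for Dppa2 (28.4% and 28.8% of all genes), and 28 fell and 4 rose for Dppa4 (25% and 25.3%). Without replicate 2 of the Dppa4 m-z+ 1-cell group, the last comparison had 18 lower and 3 higher.

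The members that fell in all 4 total RNA stage comparisons numbered 22 of 48, where 17.9% of all genes did so. Cdc45 alone rose in all 4, where 18.6% of all genes did, and 10 members passed in none, where 24.7% of all genes did. Of the 22, the 9 members Gins1, Gins4, Mcm10, Mcm3ap, Mcm4, Pold3, Rfc3, Rpa1 and Rpa3 held all 4 calls under every alternative tried, all 22 did so under TPM scaling (values scaled to a common total), 11 under median-ratio scaling, and 13 lost a call or more with some library left out. All 8 2-cell libraries lay below all 8 1-cell libraries for 24 members, where 21.6% of all genes did so, and above them for 3 members, Cdc45, Rfc5 and Rrm2, where 23% did. Together the members made up 0.363% to 0.394% of summed FPKM in 1-cell and 0.163% to 0.238% in 2-cell total RNA libraries, ranges that did not overlap. The oocyte transcript sums above were lower in the same 2-cell libraries, and their part in these counts was not tested. How the libraries were scaled moved these counts, and shares of all genes under the other scalings are not given. With values scaled to a common total (TPM) the Dppa2 controls had 34 lower and 1 higher and the Dppa4 controls 30 and 2, while with median-ratio scaling they had 23 and 7, and 20 and 7. In m-z+ embryos median-ratio scaling gave 19 lower and 8 higher for Dppa2, and 20 and 8 for Dppa4. Relative to the median of all genes, which these scalings moved to -0.30 and 0.23 in Dppa2 controls and to -0.24 and 0.19 in Dppa4 controls, the median member stayed lower under each.

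**Figure D1:**
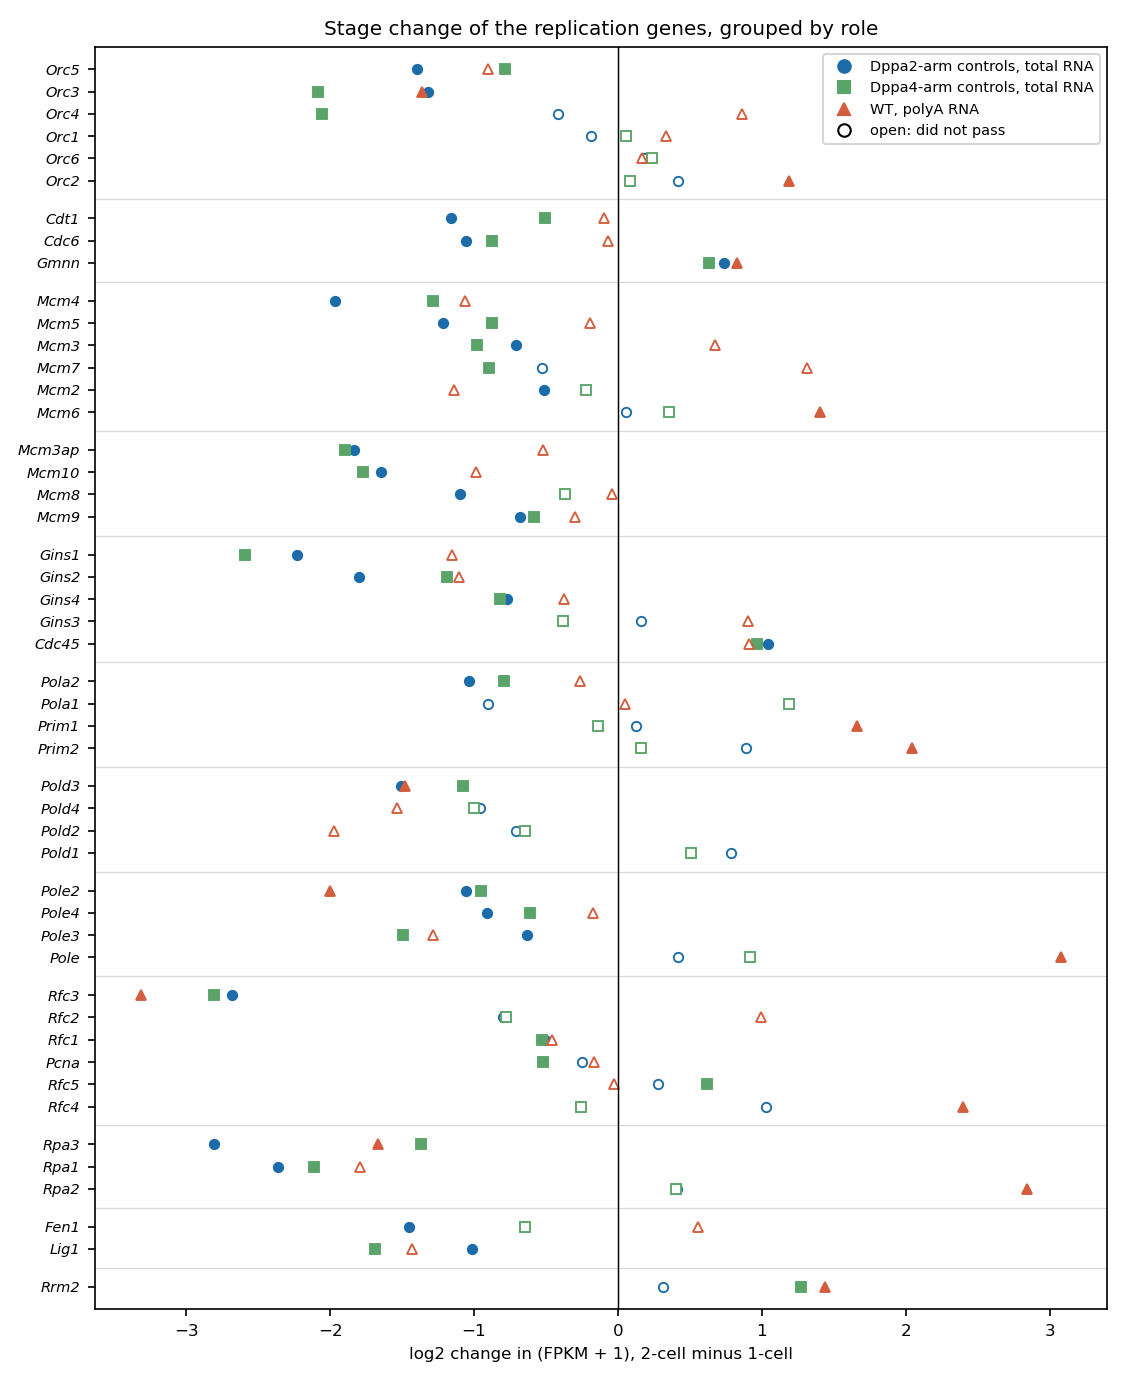
Log2 change of each replication gene from the 1-cell to the 2-cell stage (x axis, on log2(FPKM + 1)) in Dppa2 controls, Dppa4 controls and WT polyA RNA, with genes grouped by role (y axis); filled symbols passed, open symbols did not. Most total RNA symbols lie left of 0, down to -2.81 for Rpa3 in Dppa2 controls, and polyA symbols spread from -3.32 for Rfc3 to 3.08 for Pole.

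In polyA RNA of WT embryos 9 of 47 members rose (19.1%), against 17.4% of the 18506 genes tested, and 5 fell (10.6%), against 8.42%. Both counts lie near those of all genes and are no result about the members. Those that rose were Gmnn, Mcm6, Orc2, Pole, Prim1, Prim2, Rfc4, Rpa2 and Rrm2, and those that fell were Orc3, Pold3, Pole2, Rfc3 and Rpa3. The median member changed by -0.17 and the median of all genes by 0.23. The 4 libraries each carried much of this count: it was 4 without 1-cell replicate 1, 3 without 1-cell replicate 2, 4 without 2-cell replicate 1 and 7 without 2-cell replicate 2, and Rfc3 and Rpa2 were called in every one of these fits. Under TPM scaling 4 rose (Mcm6, Pole, Prim2 and Rpa2) and 10 fell, and under median-ratio scaling 5 rose, the same 4 and Prim1, and 10 fell. Fitted on the WT libraries alone, 8 rose and 11 fell. Shares of all genes under these settings are not given, so the shifted balance is no result about the members.

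Over all polyA libraries, the 14 2-cell embryos lay above both 1-cell embryos for 7 members, where 18.5% of all genes did so, and below both for 9 members, where 10.6% did. Among the 47 members with values in both tables, 8 had a change above 0 in WT polyA RNA and below 0 in Dppa4 controls, both on B6, and 1 the reverse, where 12.8% and 7.88% of the 13916 genes tested in both tables did so. No member passed in opposite directions. The members made up 0.618% and 0.685% of summed FPKM in 1-cell and 0.424% to 0.636% in 2-cell polyA libraries, which overlap. The tables were normalized separately, so levels are compared within each.

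**Figure D2:**
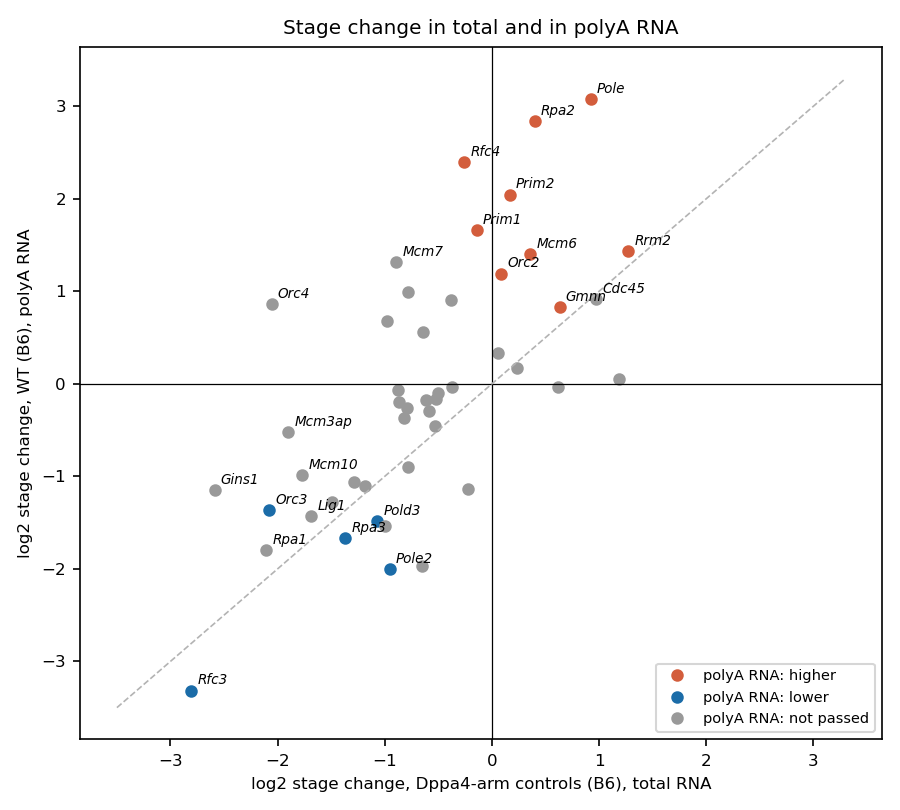
Log2 stage change of each member in Dppa4 controls in total RNA (x axis) and in WT polyA RNA (y axis), both on B6; colours give the polyA call and the dashed line marks equal changes. Rfc3 lies at the lower left with -2.80 and -3.32, and Rpa2 (0.40 and 2.84), Prim1 (-0.14 and 1.66) and Rfc4 (-0.26 and 2.40) lie well above the line of equal changes.

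E2F factors switch on many replication genes before S phase, so promoters were searched for E2F letters (TTTCCCGC, TTTCGCGC, TTTGCCGC or TTTGGCGC on either strand, overlaps allowed) in the 250 bases before and 50 after the RefSeq start on GRCm38.p6. A promoter was found for 40 members, and 17 of them (42.5%) held such letters, against 2.605% of 27025 genes with a promoter in the same table and 4.697% of the 9709 among them that were tested in total RNA. The letters stood in 9 of 18 promoters of members that fell in all 4 total RNA comparisons, in 0 of 4 of those that rose in any, in 4 of 5 that fell in WT polyA RNA and in 1 of 6 that rose there. Promoters were found for 18 of 22, 4 of 6, 5 of 5 and 6 of 9 members of these sets. Shares among all genes that rose or fell were not computed, so nothing is drawn from these counts by direction. A match describes letters and is no measured site of binding. The 4 promoters shown are those of Rfc3 and Pole2, which fell in both kinds of RNA, of Mcm6, which holds the most matches, and of Cdc45, which rose in every total RNA comparison and holds none. They lie on the minus strand of GRCm38.p6, at chr5:151651159-151651458 (Rfc3), chr12:69228141-69228440 (Pole2), chr1:128359656-128359955 (Mcm6) and chr16:18811923-18812222 (Cdc45), are RefSeq sequence from 5′ to 3′, and carry the E2F letters of either strand in capitals.
Rfc3: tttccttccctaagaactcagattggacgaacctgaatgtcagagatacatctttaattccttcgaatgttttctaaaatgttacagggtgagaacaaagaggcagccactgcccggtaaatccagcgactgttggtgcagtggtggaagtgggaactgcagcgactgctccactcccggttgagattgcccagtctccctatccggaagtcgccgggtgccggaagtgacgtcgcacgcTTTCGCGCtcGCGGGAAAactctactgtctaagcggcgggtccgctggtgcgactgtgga
Pole2: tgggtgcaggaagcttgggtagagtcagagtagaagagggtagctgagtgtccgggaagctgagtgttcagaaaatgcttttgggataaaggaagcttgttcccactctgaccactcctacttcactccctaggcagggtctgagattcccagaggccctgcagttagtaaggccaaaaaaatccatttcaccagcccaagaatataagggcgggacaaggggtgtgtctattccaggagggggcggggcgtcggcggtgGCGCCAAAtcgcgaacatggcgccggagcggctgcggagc
Mcm6: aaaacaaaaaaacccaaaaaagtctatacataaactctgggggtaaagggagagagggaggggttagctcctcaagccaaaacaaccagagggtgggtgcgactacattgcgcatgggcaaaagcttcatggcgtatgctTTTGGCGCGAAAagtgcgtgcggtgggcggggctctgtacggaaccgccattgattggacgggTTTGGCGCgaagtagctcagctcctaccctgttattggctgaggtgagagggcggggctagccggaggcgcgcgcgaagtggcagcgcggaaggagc
Cdc45: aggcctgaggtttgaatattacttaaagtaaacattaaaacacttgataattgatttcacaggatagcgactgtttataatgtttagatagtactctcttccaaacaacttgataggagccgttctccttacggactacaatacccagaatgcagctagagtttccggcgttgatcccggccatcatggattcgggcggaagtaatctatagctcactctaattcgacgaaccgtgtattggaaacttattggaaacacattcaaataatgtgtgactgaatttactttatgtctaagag

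Among the origin recognition genes, Orc3 and Orc5 fell in all 4 total RNA comparisons, Orc4 fell in 3, and Orc1, Orc2 and Orc6 passed in none. Orc3, a core subunit of the ring (ENSMUSG00000040044), was 16.96 and 16.9 FPKM in Dppa2 control 1-cell libraries and 3.91 and 9.537 at the 2-cell stage, and 20.98 and 19.62 against 2.801 and 5.663 in Dppa4 controls. Orc3 in WT polyA RNA went from 24.52 and 21.64 to 6.883 and 10.09 FPKM. No 2-cell value of Orc3 reached a 1-cell value in either table. Its log2 changes were -1.32 (SE 0.33, limma adjusted p = 0.0039), -2.08 (SE 0.33, adjusted p = 0.000216) and -1.36 (SE 0.48, adjusted p = 0.0454). The last call ended with any 1 of the WT libraries left out, at adjusted p between 0.0756 and 0.226, and the first ended without Dppa2 control 2-cell replicate 1 (-0.77, adjusted p = 0.0504).

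Orc2, another core subunit, rose in WT polyA RNA from 27.82 and 22.04 to 62.26 and 53.62 FPKM, a log2 change of 1.19 (SE 0.36, adjusted p = 0.02). In total RNA its 2-cell values of 55.73 to 84.01 FPKM lay near the 1-cell values of 50.07 to 60.06. The Orc2 call ended with any 1 WT library left out (adjusted p from 0.0582 to 0.151) and under both other scalings. Orc2 overlaps Nif3l1 on the opposite strand, and the polyA libraries do not mark strand, so reads of the pair cannot be told apart there. Orc5 changed by -1.39 (SE 0.19) in Dppa2 controls and by -0.78 (SE 0.19) in Dppa4 controls on the log2 scale. Its call in Dppa2 m-z+ embryos (-0.70) ended without 2-cell replicate 2 (-0.46), without 1-cell replicate 2 (-0.61) and under median-ratio scaling (-0.48). That of Orc4 in Dppa4 m-z+ embryos (-1.04) ended without 2-cell replicate 1 (-0.53). Orc6, which also takes part in the final steps of cell division, was the most abundant ORC message in polyA RNA, at 362.9 to 801.8 FPKM over all 16 libraries, with a WT change of 0.17 (SE 0.33).

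The licensing genes are the loaders Cdt1 and Cdc6 and the inhibitor Gmnn. Cdt1, which brings MCM to origins, fell in all 4 total RNA comparisons, from 37.84 to 54.27 FPKM over the 8 1-cell libraries to 20.06 to 34.17 over the 8 2-cell libraries. Cdc6, the ATPase that works with Cdt1, fell in the same comparisons, from 14.39 to 20.45 to 7.518 to 12.49 FPKM. Cdt1 in Dppa4 controls was called only narrowly (-0.51, adjusted p = 0.0421) and not under median-ratio scaling, without either 1-cell library or without 2-cell replicate 2 (-0.22), and Cdc6 there not without 1-cell replicate 1 (-0.77, adjusted p = 0.0549). In Dppa2 m-z+ embryos the Cdc6 call (-0.57, adjusted p = 0.0449) ended under median-ratio scaling (-0.36), with the replicate number as a block (adjusted p = 0.0532), without either 1-cell library or without 2-cell replicate 1 (-0.24, adjusted p = 0.382). Neither passed in WT polyA RNA, where Cdt1 changed by -0.10 (SE 0.69) and Cdc6 by -0.07 (SE 0.48).

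Geminin, the inhibitor of Cdt1 (Gmnn, ENSMUSG00000006715), was the only member to rise in both control comparisons and in WT polyA RNA. Its values were 59.86 and 53.56 FPKM in Dppa2 control 1-cell libraries and 97.59 and 92.7 in 2-cell libraries, and 51.01 and 47.21 against 80.96 and 72.41 in Dppa4 controls. Gmnn in WT polyA RNA went from 420.9 and 556.7 to 833.6 and 883.8 FPKM. These were changes of 0.74 (SE 0.19, limma adjusted p = 0.00427), 0.63 (SE 0.19, adjusted p = 0.0138) and 0.82 (SE 0.28, adjusted p = 0.039). Within these groups no 2-cell library overlapped a 1-cell library, but across all groups the ranges met, at 47.21 to 61.22 against 59.64 to 98.68 FPKM in total RNA. The rise was not called under TPM scaling in any of the 3 comparisons (0.28, 0.28 and 0.60), nor in polyA RNA under median-ratio scaling or with any 1 WT library left out, and in Dppa4 controls it was not called without 1-cell replicate 2 (0.58) or 2-cell replicate 1 (0.55). In Dppa2 m-z+ embryos Gmnn rose by 0.53. That call ended under TPM scaling (0.27), with no filter and on the compared libraries alone. It also ended without either 1-cell library or without 2-cell replicate 2 (0.28). In Dppa4 m-z+ embryos the Gmnn change of 0.31 did not pass.

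Of the 6 helicase subunits, Mcm3, Mcm4 and Mcm5 fell in all 4 total RNA comparisons, Mcm2 and Mcm7 in 3, and Mcm6 in none. The Mcm3 call in Dppa2 m-z+ embryos (-0.45) ended with each of their libraries left out in turn (-0.51 to -0.40). It also ended under median-ratio scaling (-0.23) and on the compared libraries alone. Mcm2 went from between 37.5 and 54.48 FPKM in 1-cell to between 23.74 and 41.59 in 2-cell libraries, which overlap, and all 3 of its calls, at -0.51 (Dppa2 controls), -0.47 (Dppa2 m-z+) and -0.51 (Dppa4 m-z+), ended under median-ratio scaling, without either 1-cell library or without 2-cell replicate 1, where the last became -0.23 (adjusted p = 0.32). Mcm4 (ENSMUSG00000022673) was 52.47 and 60.32 FPKM in Dppa2 control 1-cell libraries and 19.01 and 9.734 in 2-cell libraries, and 55.09 and 55.6 against 18.41 and 26.54 in Dppa4 controls. That is a fall of 3.91-fold (log2 -1.97, SE 0.25, adjusted p = 2.6e-05) and of 2.44-fold (log2 -1.28, SE 0.25, adjusted p = 0.00108). In WT polyA RNA Mcm4 was 36.34 and 28.38 against 10.61 and 20.61 FPKM, and its change of -1.06 (SE 0.49) did not pass, at adjusted p = 0.121.

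Mcm6 (ENSMUSG00000026355) passed in WT polyA RNA, and none of its ring partners did. There it was 16.25 and 16.98 FPKM in WT 1-cell and 47.98 and 43.14 in WT 2-cell embryos, a rise of 1.40 (SE 0.37, adjusted p = 0.00891), and all 14 2-cell libraries, at 30.48 to 72.66 FPKM, lay above both. The Mcm6 call ended without either 1-cell library or without 2-cell replicate 1, at adjusted p from 0.0527 to 0.0642. In total RNA Mcm6 ranged from 27.79 to 39.02 FPKM at the 1-cell and from 31.7 to 61.84 at the 2-cell stage, which overlap. Mcm7, whose gene overlaps neighbours, changed by 1.32 (SE 0.62) in WT polyA RNA without passing, a change close to that of Mcm6, and differences between subunits were not tested. Mcm7 fell by 0.89 (SE 0.23, adjusted p = 0.00631) in Dppa4 controls, a call that ended without 2-cell replicate 2 (-0.50, adjusted p = 0.0621).

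The 4 other Mcm names moved down together in total RNA: Mcm10, Mcm9 and Mcm3ap fell in all 4 comparisons and Mcm8 in 3. Mcm10, a factor that helps start the loaded helicase, went from between 57.02 and 72.73 FPKM in 1-cell libraries to between 9.345 and 25.04. Mcm3ap, a message-export scaffold with an Mcm3-binding part, went from between 24.62 and 29.24 to between 5.482 and 9.385 FPKM over the same libraries and changed by -1.83 (SE 0.22, adjusted p = 1.62e-05) in Dppa2 controls and -1.90 (SE 0.22, adjusted p = 2.02e-05) in Dppa4 controls. Mcm8 and Mcm9, a helicase pair known from recombination, were at 3.412 to 10.44 and 7.821 to 15.18 FPKM in the control libraries. The Mcm8 call in Dppa2 m-z+ embryos (-0.80) ended without either 1-cell library or without 2-cell replicate 2 (-0.47). It also ended under median-ratio scaling, with no filter and on the compared libraries alone. The Mcm9 calls in Dppa2 m-z+ embryos (-0.51) and Dppa4 controls (-0.58) ended under median-ratio scaling, without either 1-cell library or 2-cell replicate 1. None of the 4 passed in WT polyA RNA.

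The activators of the helicase held the one member that rose in every total RNA stage comparison. Cdc45 (ENSMUSG00000000028), which joins MCM and GINS at firing origins, was 23.38 and 23.75 FPKM in Dppa2 control 1-cell libraries and 52.27 and 46.87 in 2-cell libraries. In Dppa4 controls Cdc45 was 20.78 and 18.68 against 49.75 and 31.39 FPKM. All 8 2-cell libraries, at 31.39 to 54.43 FPKM, lay above all 8 1-cell libraries, at 18.41 to 23.75. The rise was 1.04 in Dppa2 controls (SE 0.21, limma adjusted p = 0.00102), 0.97 in Dppa4 controls (adjusted p = 0.00236), 1.07 in Dppa2 m-z+ (adjusted p = 0.000897) and 0.92 in Dppa4 m-z+ embryos (adjusted p = 0.0032), and was called under TPM and median-ratio scaling in each. WT polyA values of 69.77 and 64.31 against 135.2 and 118.9 FPKM gave 0.91 (SE 0.44), which did not pass (adjusted p = 0.143), and the 14 2-cell libraries spread from 63.93 to 217 FPKM. Cdc45 overlaps Ufd1 on the opposite strand.

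Of the 4 GINS genes, 3 fell in total RNA. Gins1 (ENSMUSG00000027454) was 28.36 and 34.59 FPKM in Dppa2 control 1-cell libraries and 6.611 and 5.253 in 2-cell libraries, and 36.16 and 32.08 against 5.024 and 4.641 in Dppa4 controls. Its falls of 4.68-fold (adjusted p = 4.13e-05) and 6.01-fold (adjusted p = 1.98e-05) were the largest of this role in those comparisons. Gins2 and Gins4 also fell in all 4 comparisons, Gins4 by the smaller amount of 0.77 (SE 0.14) in Dppa2 controls. Gins3, the remaining subunit, passed nowhere, with 0.16 (SE 0.31) in Dppa2 and -0.38 (SE 0.31) in Dppa4 controls. In WT polyA RNA no activator passed, although all 14 2-cell libraries lay below both 1-cell libraries for Gins1 (14.41 to 77.67 against 78.83 and 87.36 FPKM) and Gins4.

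**Figure D3:**
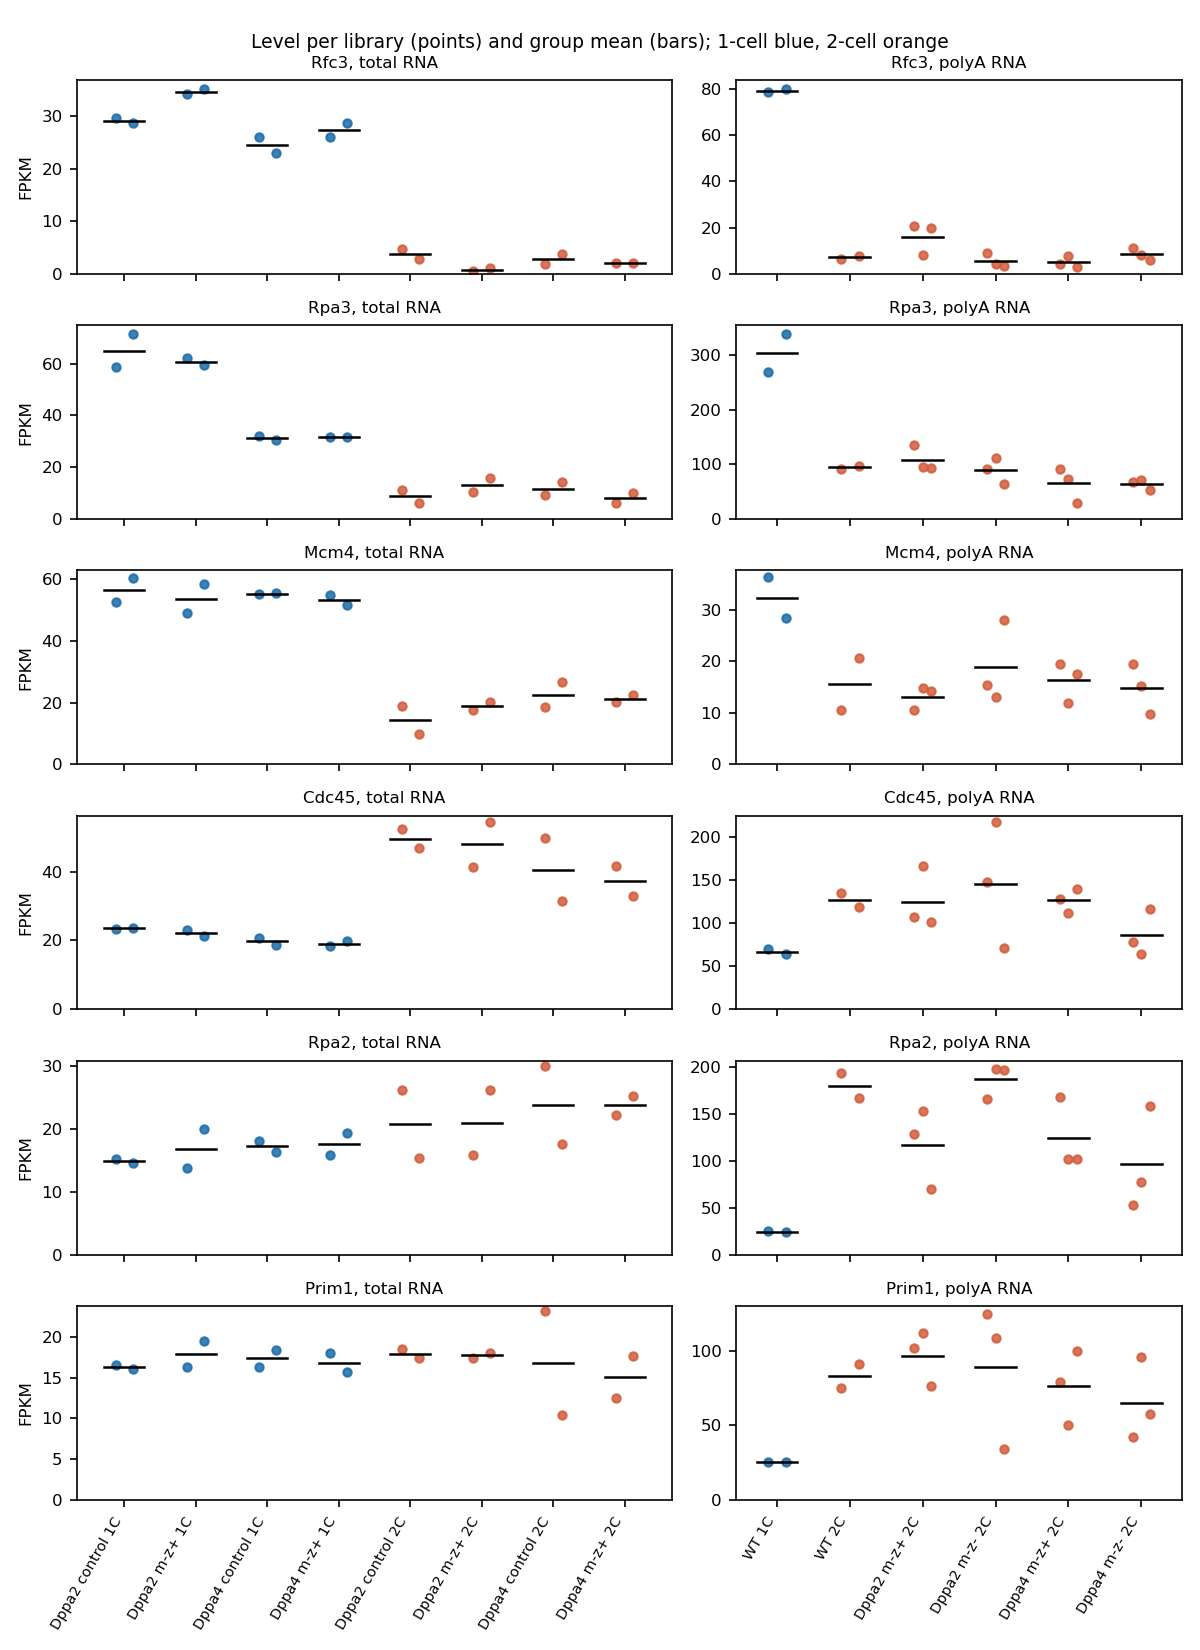
FPKM of each library (points) and group means (bars) for Rfc3, Rpa3, Mcm4, Cdc45, Rpa2 and Prim1 in total RNA (left) and polyA RNA (right), with 1-cell groups in blue and 2-cell groups in orange. Rfc3, Rpa3 and Mcm4 are lower in all 2-cell groups of both tables, Cdc45 is higher in all 2-cell groups of total RNA, and Rpa2 rises in polyA RNA from 23.6 and 24.66 FPKM to 52.84 or more.

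Of polymerase alpha and primase, which make the primers, 1 of 4 genes fell in total RNA. Pola2, a regulatory subunit, was 8.942 to 14.05 FPKM in 1-cell and 4.05 to 8.978 in 2-cell total RNA. It fell in all 4 comparisons, by 1.03 (SE 0.24) in Dppa2 and 0.79 (SE 0.24) in Dppa4 controls. The latter call ended without replicate 2 of either stage (-0.67 and -0.46) and on the compared libraries alone. In Dppa2 m-z+ embryos the Pola2 call (-0.67) ended under median-ratio scaling (-0.47) and with no filter. That call also ended without either 1-cell library or without 2-cell replicate 1 (-0.55). Pola1, Prim1 and Prim2 passed in none of the 4. Pola1, the catalytic subunit, varied widely within groups: Dppa4 control 1-cell libraries had 77.84 and 37.71 FPKM and Dppa2 m-z+ 2-cell libraries 36.11 and 144.7. The small RNA gene Gm23557 lies within Pola1 on the same strand.

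Both primase genes rose in WT polyA RNA. Prim1, the catalytic subunit, was 25.73 and 25.24 FPKM in 1-cell and 75.32 and 91.02 in 2-cell embryos, a rise of 1.66 (SE 0.53, adjusted p = 0.0284). Prim2, the large subunit, was 2.646 and 6.476 against 25.62 and 16.44 FPKM, a rise of 2.04 (SE 0.54, adjusted p = 0.00877). The Prim1 call ended with any 1 WT library left out (adjusted p from 0.0803 to 0.133), and that of Prim2 without replicate 1 of either stage (1.53 and 1.74). In total RNA Prim1 stayed between 15.66 and 19.5 FPKM in 1-cell and between 10.46 and 23.18 in 2-cell libraries, so that the stages overlapped. Whether the polyA and total RNA changes of these genes differ was not tested, since the tables were made by separate methods.

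In polymerase delta, Pold3, an accessory subunit (ENSMUSG00000030726), fell in all 4 total RNA comparisons and in WT polyA RNA. It was the most abundant member in 1-cell total RNA, at 174.1 to 183.3 FPKM over 8 libraries, and was 54.66 to 110.2 over the 8 2-cell libraries. Its falls were 1.51 (SE 0.18, adjusted p = 1.32e-05) in Dppa2 controls, 1.07 (SE 0.18, adjusted p = 0.000321) in Dppa4 controls and 1.48 (SE 0.38, adjusted p = 0.00784) in WT polyA RNA, where 83.11 and 107.6 FPKM stood against 35.61 and 31. The polyA call ended without 1-cell replicate 2 (-1.30, adjusted p = 0.0884) or 2-cell replicate 2 (-1.38, adjusted p = 0.0588). Pold1, the catalytic subunit, was at most 2.497 FPKM in any total RNA library and passed in no comparison. Pold2 was 1.051 to 6.184 FPKM there and Pold4 at most 2.707. Pold2 fell in the m-z+ embryos of both arms, by 1.11 (adjusted p = 0.0127) for Dppa2 and 0.98 (adjusted p = 0.0271) for Dppa4, and Pold4 in those of Dppa2, by 1.11 (adjusted p = 0.0449). Without passing, Pold2 changed by -0.71 in Dppa2 and -0.65 in Dppa4 controls, and Pold4 by -0.96 and -1.002. The Pold2 call of Dppa4 and the Pold4 call of Dppa2 ended with any 1 of their libraries left out and under median-ratio scaling, and the Pold2 call of Dppa2 without 1-cell replicate 1 or 2-cell replicate 2.

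Of the polymerase epsilon genes, Pole2, Pole3 and Pole4 fell in all 4 total RNA comparisons. Pole2, the second subunit (ENSMUSG00000020974), was 9.351 and 7.834 FPKM in Dppa2 control 1-cell libraries and 5.302 and 2.354 in 2-cell libraries, and went from 57.99 and 52.11 to 9.989 and 16.72 in WT polyA RNA. Its changes were -1.06 (SE 0.36, adjusted p = 0.0224), -0.95 in Dppa4 controls (SE 0.36, adjusted p = 0.044) and a 4.01-fold fall in WT polyA RNA (SE 0.62, adjusted p = 0.0236). In Dppa2 controls the Pole2 call ended without either 1-cell library or without 2-cell replicate 2 (-0.60). It also ended there with no filter, with a pseudocount of 0.1 and on the compared libraries alone. In Dppa4 controls it ended without either 1-cell library or without 2-cell replicate 1 (-0.70). That call also ended under median-ratio scaling (-0.78), with no filter, with a pseudocount of 0.1 and with the replicate number as a block. The WT call ended without either 1-cell library or 2-cell replicate 1 (-1.66).

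Pole, the catalytic subunit, was near the filter at the 1-cell stage, with 0.6194 and 0.6167 FPKM in WT polyA embryos, and 19.26 and 8.223 at the 2-cell stage, a rise of 3.08 (SE 0.87, adjusted p = 0.0144) that was not called without either 1-cell library or without 2-cell replicate 1 (2.51, adjusted p = 0.126). In total RNA Pole rose in m-z+ embryos, by 1.15 (SE 0.42, adjusted p = 0.0333) for Dppa2 and 1.50 (SE 0.42, adjusted p = 0.0106) for Dppa4, and changed by 0.41 and 0.92 in the controls without passing. In each arm the Pole call of m-z+ embryos ended without 2-cell replicate 2, at 0.53 for Dppa2 and 1.45 for Dppa4, or without 1-cell replicate 2, and for Dppa2 also without 1-cell replicate 1. No member passed the test of the difference in stage change between m-z+ and control embryos, Pole included. Pole3 and Pole4, small histone-fold subunits, fell by 0.63 (SE 0.21) and 0.91 (SE 0.15) in Dppa2 controls, where the Pole3 call ended under median-ratio scaling and without replicate 1 of either stage.

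The clamp loader gene Rfc3 had the largest fall of any member over the 5 stage comparisons, in Dppa2 m-z+ embryos, while in Dppa2 controls Rpa3 fell more. Rfc3 (ENSMUSG00000033970), a small RFC subunit, was 29.62 and 28.7 FPKM in Dppa2 control 1-cell libraries and 4.797 and 2.791 in 2-cell libraries, and 26.15 and 22.94 against 1.837 and 3.695 in Dppa4 controls. In m-z+ embryos Rfc3 went from 34.24 and 35.2 to 0.5548 and 1.042 FPKM for Dppa2 and from 26.12 and 28.72 to 1.962 and 2.031 for Dppa4. In WT polyA RNA it was 78.6 and 80.13 against 6.455 and 7.747 FPKM. Every 2-cell library of either table, at most 4.797 in total and 20.65 FPKM in polyA RNA, lay below every 1-cell library of that table.

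The Rfc3 changes were -2.69 (SE 0.27, limma adjusted p = 3.09e-06) in Dppa2 controls, -2.80 (adjusted p = 3.7e-06) in Dppa4 controls, -4.33 (adjusted p = 8.52e-08) in Dppa2 m-z+, -3.24 (adjusted p = 1.06e-06) in Dppa4 m-z+ and -3.32 (SE 0.56, adjusted p = 0.00025) in WT polyA RNA, the last a fall of 9.95-fold. Rfc1, the large subunit, fell in each total RNA comparison, with log2 changes between -0.63 and -0.51. The Rfc1 call ended under median-ratio scaling in 3 of the 4 (both controls and Dppa2 m-z+), in Dppa2 controls also without 1-cell replicate 1 or 2-cell replicate 1 (-0.30, adjusted p = 0.11), and in Dppa4 controls without either 1-cell library. Rfc5 rose in 3 of the 4, by 0.62 (SE 0.22, adjusted p = 0.0353) in Dppa4 controls, and none of these rises was called under TPM scaling, nor that of Dppa4 controls with any 1 of their libraries left out, nor that of Dppa2 m-z+ embryos (0.61) without replicate 1 of either stage (0.39 and 0.33). Rfc4 rose in WT polyA RNA, from 7.8 and 6.233 to 45.65 and 36.83 FPKM (2.40, SE 0.81, adjusted p = 0.0374), but its gene overlaps Eif4a2, a translation factor gene on the opposite strand, and its call ended with any 1 WT library left out (adjusted p from 0.1001 to 0.163). Pcna, the clamp itself, was 52.28 to 63.99 FPKM in 1-cell and 37.82 to 63.73 in 2-cell total RNA and passed in 1 of the 4 total RNA comparisons, that of Dppa4 controls, at -0.52 (SE 0.19, adjusted p = 0.0345), but not with any 1 of those libraries left out.

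In RPA, which coats single-stranded DNA, Rpa1 and Rpa3 fell in all 4 total RNA comparisons and Rpa2 passed in none. Rpa3 (ENSMUSG00000012483), the smallest, was 58.61 and 71.63 FPKM in Dppa2 control 1-cell libraries and 11.26 and 6.233 in 2-cell libraries, and 31.92 and 30.48 against 9.13 and 14.31 in Dppa4 controls. Rpa3 in WT polyA RNA went from 268.9 and 338.9 to 91.24 and 97.36 FPKM. The stages did not overlap in either table, and the falls were 6.99-fold (log2 -2.81, SE 0.29, adjusted p = 4.13e-06), 2.58-fold (log2 -1.37, SE 0.29, adjusted p = 0.0018) and 3.18-fold (log2 -1.67, SE 0.44, adjusted p = 0.00981). The polyA call of Rpa3 ended without 1-cell replicate 2 (-1.50, adjusted p = 0.0889) or 2-cell replicate 1 (-1.62, adjusted p = 0.0601). Rpa1, the large DNA-binding subunit, changed by -2.36 (SE 0.32) in Dppa2 and -2.11 (SE 0.32) in Dppa4 controls, and by -1.79 (SE 0.69) without passing in WT polyA RNA (adjusted p = 0.0647).

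Rpa2, the middle subunit (ENSMUSG00000028884), rose in WT polyA RNA from 24.66 and 23.6 to 192.7 and 166.2 FPKM, which is 7.16-fold (log2 2.84, SE 0.46, adjusted p = 0.000169). All 14 2-cell polyA libraries, at 52.84 to 197.4 FPKM, lay above both 1-cell libraries. In total RNA the 1-cell libraries had 13.69 to 19.87 and the 2-cell libraries 15.38 to 29.95 FPKM, and the 4 changes, 0.28 to 0.42, did not pass. In the same polyA libraries 1-cell levels of the subunits ran from 7.127 and 11.5 FPKM (Rpa1) to 268.9 and 338.9 (Rpa3).

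Fen1 and Lig1, which process and join Okazaki fragments, fell in 2 and 3 of the 4 total RNA comparisons. Fen1 went from 19.77 and 16.31 to 8.486 and 4.043 FPKM in Dppa2 controls (-1.46, SE 0.32, adjusted p = 0.00168) and changed by -0.65 (SE 0.32, adjusted p = 0.113) in Dppa4 controls. Lig1 fell by 1.01 (SE 0.31, adjusted p = 0.0124) in Dppa2 and by 1.69 (SE 0.31, adjusted p = 0.000658) in Dppa4 controls, the first not without 1-cell replicate 1 or 2-cell replicate 2 (-0.61). Lig1 ranged from 12.02 to 18.05 FPKM in 1-cell and from 2.499 to 11.44 in 2-cell total RNA. The Fen1 call in Dppa2 m-z+ embryos (-1.16) ended without 2-cell replicate 2 (-0.70, adjusted p = 0.093). Rrm2 (ENSMUSG00000020649), the small subunit of the enzyme that makes deoxynucleotides, rose in 3 of 4: it was 14.25 and 13.74 FPKM in Dppa4 control 1-cell libraries and 37.08 and 33.53 in 2-cell libraries, a rise of 1.27 (SE 0.17, adjusted p = 6.22e-05).

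In Dppa2 controls, where Rrm2 was 25.2 and 21.37 against 27.17 and 31.28 FPKM, it changed by 0.32 (SE 0.17, adjusted p = 0.127). Over all groups its 2-cell libraries, at 27.17 to 37.08 FPKM, still lay above all 1-cell libraries. In WT polyA RNA Rrm2 was 58.83 and 32.5 against 89.47 and 161.1 FPKM, a rise of 1.44 (SE 0.50, adjusted p = 0.0421) that was not called under either other scaling, nor without 1-cell replicate 1 (1.85) or 2 (1.02) or without 2-cell replicate 2 (1.01).

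Stored oocyte messages can gain a longer poly(A) tail through cytoplasmic polyadenylation elements near the 3′ end, and polyA capture reads only tailed messages, so the last 150 bases of each member's annotated transcript were searched for the letters TTTTAT or TTTTAAT. They were found in 21 of 48 members (43.75%) and in 23.7% of 13216 genes tested in polyA RNA that have such a transcript. Of members that rose in WT polyA RNA 2 of 9 held them (Gmnn and Pole), of those that fell 3 of 5 (Rfc3, Rpa3 and Pole2), and of those that did not pass 16 of 33. Tail length was not measured, and nothing is drawn from these letters. The match nearest the 3′ end is shown for 2 members that rose and 2 that fell, in 30 bases of GENCODE M21 transcript sequence, 5′ to 3′, with every match in those bases in capitals.
Gmnn: atTTTTAATccgTTTTATgtaaatagcatt
Pole: ttgaagcgtctgTTTTATgcttccacacaa
Pole2: gaattttcttatTTTTATcttatgtatttt
Rpa3: acaactaagcctTTTTATaaacttttttta

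No replication gene passed between embryos lacking the maternal Dppa2 or Dppa4 allele and their controls, at either stage. In 2-cell embryos RNA of the targeted gene itself overlapped between these groups, as given above. At the 1-cell stage 0 of 48 members passed in limma for Dppa2 m-z+ against control (0.0398% of all genes did), with 1 member at an unadjusted p under 0.05 where 3.05% of all genes were, and 0 for Dppa4 (0.00664% of all genes), with 0 against 1.27% unadjusted. At the 2-cell stage 0 passed for Dppa2 (0.186% of all genes), with 8 unadjusted against 12.8%, and 0 for Dppa4 (0%), with 0 unadjusted against 2.67%. Members whose difference stayed within 0.5 on the log2 scale numbered 45, 45, 36 and 47 of 48, in the order Dppa2 1-cell, Dppa4 1-cell, Dppa2 2-cell and Dppa4 2-cell, which is 93.75%, 93.75%, 75% and 97.92% where all genes had 91.03%, 94.92%, 76.17% and 90.83%. The median SE of a member was 0.25, and differences well above that size did not pass. In 2-cell embryos of the Dppa2 arm, Rfc3 at -1.40 (SE 0.27, limma adjusted p = 0.0545) was not called. Orc4 there, at -1.07 (SE 0.28, adjusted p = 0.128), was not called either. A count of 0 therefore does not exclude differences of that size.

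The member nearest the threshold was Rfc3 in 2-cell embryos of the Dppa2 arm. Its 4.797 and 2.791 FPKM in controls stood against 0.5548 and 1.042 in m-z+, which do not overlap, a difference of -1.40 (SE 0.27, adjusted p = 0.0545). It passed under median-ratio scaling and with a pseudocount of 0.1. Without Dppa2 control 2-cell replicate 2, Rfc2 and Rfc3 passed, both lower, and without m-z+ 2-cell replicate 2 Orc5 (higher) and Mcm10, Pole2 and Rfc3 (lower) passed. Controls of the Dppa4 arm, at 1.837 and 3.695 FPKM of Rfc3, overlapped their m-z+ embryos, at 1.962 and 2.031, and the difference between the arms was -1.11 (SE 0.38, adjusted p = 0.535).

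Orc4 in the same Dppa2 comparison was 47.84 and 34.68 FPKM in controls against 15.7 and 22.67 in m-z+ (-1.07, SE 0.28, adjusted p = 0.128), and Orc5 was 27.36 and 33.73 against 57.66 and 41.03 (0.66, SE 0.19, adjusted p = 0.17). The stage change itself differed between m-z+ and control for 0 members in each arm: 3 were at an unadjusted p under 0.05 for Dppa2, where 8.62% of all genes were and 0% passed, and 1 for Dppa4, where 1.79% were and 0.00664% passed. Between the control arms, which also differ in strain, 0 members passed (0.139% of all genes), with 7 unadjusted against 15.3%. Orc4 came nearest, with a difference of 1.64 (SE 0.40, adjusted p = 0.0985), followed by Rrm2 at -0.96 (adjusted p = 0.11) and Rpa3 at -1.44 (adjusted p = 0.139), which passed without Dppa4 control 2-cell replicate 1.

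In 2-cell polyA RNA, 0 of 47 members passed between libraries labelled Dppa2 m-z- and m-z+ (0.0054% of all genes), with 6 at an unadjusted p under 0.05 against 7.65%, and 0 between Dppa4 m-z- and m-z+ (0.0162% of all genes), with 0 unadjusted against 7%. Within 0.5 on the log2 scale lay 28 members for Dppa2 (59.57%, all genes 59.88%) and 38 for Dppa4 (80.85%, all genes 62.22%), with a median SE of 0.43. Rfc3 was 8.926, 4.243 and 3.553 FPKM in the libraries labelled Dppa2 m-z- and 20.65, 8.09 and 19.67 in m-z+ (-1.37, SE 0.46, adjusted p = 0.551), which overlap. In the Dppa4 arm Rfc3 was 11.21, 7.901 and 6.093 in m-z- and 4.018, 7.68 and 2.974 in m-z+ (0.72, SE 0.46), and the arms differed by -2.09 (SE 0.64, adjusted p = 0.378). With replicate 3 of the Dppa2 m-z- group left out, whose blood list was high, the count was still 0.

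Against WT 2-cell embryos, 0 members passed in any of the 4 polyA groups: 2 were at an unadjusted p under 0.05 for Dppa2 m-z+ (7.75% of all genes, and 0.113% passed), 1 for Dppa2 m-z- (6.21%, 0.0973%), 2 for Dppa4 m-z+ (6.65%, 0%) and 3 for Dppa4 m-z- (10.7%, 0.0648%). The Dppa2 groups differ from WT in strain as well. Pold2, the second subunit of polymerase delta, had the largest difference from WT over these 4 comparisons, in Dppa2 m-z-: 6.895, 4.593 and 2.78 FPKM against 0.9248 and 0 in WT (1.99, SE 0.66, adjusted p = 0.605). Gmnn in Dppa4 m-z- embryos, at 554.1, 515.1 and 570.1 FPKM, lay below both WT libraries at 833.6 and 883.8 (-0.65, SE 0.26, adjusted p = 0.374).

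**Figure D4:**
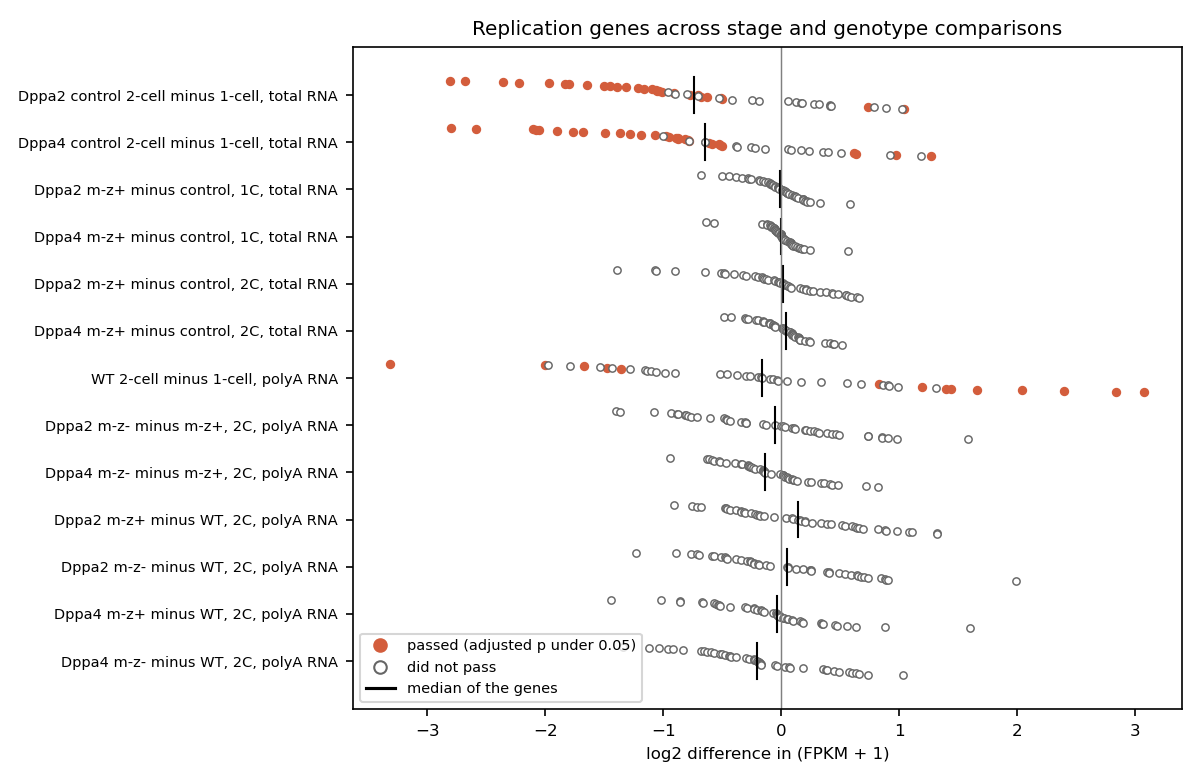
Log2 difference of each member (points, x axis) in 3 stage comparisons and 10 genotype comparisons (y axis), with orange for members that passed, open circles for those that did not and a black bar at the median. Orange points stand in the stage comparisons, with medians of -0.74 and -0.65 in the total RNA controls, and the genotype comparisons hold open circles only.

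A list of 58 other genes of DNA replication was counted the same way, of which 57 were tested in total and 58 in polyA RNA. In Dppa2 controls 21 rose and 13 fell (36.8% and 22.8%, all genes 31.7% and 29.9%). In Dppa4 controls 15 rose and 12 fell (26.3% and 21.1%), near the 24.9% and 24.2% of all genes. In m-z+ embryos 20 rose and 12 fell for Dppa2 (35.1% and 21.1%, all genes 28.8% and 28.4%), and 20 and 10 for Dppa4 (35.1% and 17.5%, all genes 25.3% and 25%). In WT polyA RNA 18 rose and 2 fell (31.0% and 3.45%, all genes 17.4% and 8.42%). Their median changes in the same order were 0.33, 0.18, 0.25, 0.23 and 0.38, those of all genes 0.06, 0.04, 0.02, 0.03 and 0.23, and those of the replication machinery -0.74, -0.65, -0.66, -0.69 and -0.17. No gene of the list passed in any genotype comparison. Ccne1, the cyclin that drives entry into S phase, rose most: it was 2.335 and 4.03 FPKM in Dppa2 control 1-cell and 181.6 and 166.6 in 2-cell libraries, and 1.669 and 2.751 against 152.9 and 134.5 in WT polyA RNA. These are changes of 5.42 (SE 0.34, adjusted p = 7.84e-08) and 5.51 (SE 0.38, adjusted p = 1.67e-08).

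Split by function, the list was small and uneven. In Dppa4 controls firing kinases and cyclins had 5 of 7 higher and 2 lower, firing factors 2 of 5 higher and 2 lower, fork protection 1 of 6 higher and 2 lower, and clamp regulators 2 of 4 higher and 0 lower. Nucleotide synthesis had 0 of 8 either way, primer removal and topology 0 of 7 higher and 3 lower, chromatin assembly 0 of 2 and 1, licensing control 0 of 6 and 1, and the E2F and Rb families 5 of 12 higher and 1 lower. In WT polyA RNA the higher ones numbered 4 firing kinases and cyclins, 4 genes of nucleotide synthesis, 3 clamp regulators, 3 of primer removal and topology, 1 each of fork protection, chromatin assembly, licensing control and the 13 E2F and Rb genes, and 0 firing factors, and the lower ones 1 of primer removal and topology and 1 of E2F and Rb. E2f7, a repressor of E2F targets, was 0.1486 and 0.1194 FPKM in Dppa2 control 1-cell and 27.75 and 43.8 in 2-cell libraries, a rise of 4.98 (SE 0.32, adjusted p = 1.06e-07). The largest falls of the list in the same comparison were those of Top2b, a DNA topoisomerase, by 2.38 (SE 0.37, adjusted p = 0.000115), and of Rbl1, a pocket protein that binds E2F, by 2.01 (SE 0.20, adjusted p = 3e-06).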

How the data were processed

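Transcript levels were deposited by the authors as FPKM, 1 table for total RNA and 1 for polyA RNA, with 1 column per library. Per the labels' protocols, total RNA libraries came from a SMARTer stranded kit and are called reverse-stranded, and polyA libraries came from a SMARTer Ultra Low kit with Nextera XT and are called non-stranded. Per the submitters' processing notes, HISAT2 2.1.0, StringTie 1.3.3b and mm10 were used. Which annotation, filters or strand setting they used is not given in the sources used here. The tables hold no read counts, so depth is unknown and no count model was run.

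Each table was fitted on its own with limma 3.58.1 (R 4.3.3, statmod 1.5.0; trended, robust empirical Bayes) on log2(FPKM + 1), with 1 mean for each group, all 16 libraries and genes of at least 1 FPKM in at least 2 libraries. P-values were adjusted by Benjamini-Hochberg over all genes of the table and a gene passed under 0.05. The fit was tested on simulated data. Alternatives were TPM scaling (each library to a common total), median-ratio scaling, a filter at 5 FPKM or none, a pseudocount of 0.1, the compared libraries alone, a replicate block and leaving out each library.

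The members, the roles, the marker lists and the list of other replication genes were chosen with earlier results of these data known. Members were named, with values by library or as ranges over libraries, where they pass between genotypes, pass in opposite directions in 2 stage comparisons, pass in the same direction in WT polyA RNA and both control comparisons (up to the 8 with the largest change), or have the largest rise or fall of their role; of other replication genes at most the 2 largest rises and 2 largest falls of a comparison are named. Orc4, Orc6, Pola1, Prim1, Mcm7, Mcm3, Mcm5, Cdc6, Gins2 to Gins4, Pole3, Pole4, Pold4, Pcna, Rfc1 and Rfc5 fall outside that rule and were chosen after their values were seen. Promoters are RefSeq sequence of GRCm38.p6, found for 40 members, and transcript ends are GENCODE M21; 25 of 48 members with a position overlap another annotated gene, 20 of them on the opposite strand.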

Additional observations from a re-analysis of the deposited data

How the results depend on the processing

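No call of a single member changed sign under the alternatives, but the balance of counts in WT polyA RNA turned, from 9 higher and 5 lower to 4 and 10 under TPM scaling, 5 and 10 under median-ratio scaling and 8 and 11 on the compared libraries alone, and to 1 and 3 without 1-cell replicate 1; the cause was not tested. These counts were not set beside those of all genes under the same settings. Over 140 calls of single members in the stage comparisons, 1537 values under alternatives were computed: 1278 kept their direction and side of the threshold and 259 kept their direction but no longer passed. With TPM scaling 13 of 140 calls were lost, with median-ratio scaling 32, with no filter 23, with only the compared libraries 24, with a pseudocount of 0.1 2, and with a filter at 5 FPKM 0 of the 137 that could be computed. Leaving out 1 library, the number of members passed between the stages ranged from 24 to 28 in Dppa2 controls, 24 to 31 in Dppa2 m-z+, 20 to 26 in Dppa4 controls, 21 to 25 in Dppa4 m-z+ and 3 to 7 in WT polyA RNA. Between Dppa2 m-z+ and control 2-cell embryos it ranged from 0 to 4, and was 1 (Rfc3, lower) under median-ratio scaling and with a pseudocount of 0.1; the cause was not tested. Between the stage changes of the control arms it ranged from 0 to 1. The other 11 comparisons gave 0 in every such fit.

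No pairing of libraries by replicate number was seen. Deviations from group means of same-numbered libraries correlated at r = -0.14 to 0.14 in total RNA (56 pairs) and -0.18 to 0.12 in polyA RNA (36 pairs). Such values cannot exclude a shared animal, litter or day, which the labels do not give. With the replicate number as a block, the passed members were 28 in Dppa2 controls, 34 in Dppa2 m-z+, 29 in Dppa4 controls, 32 in Dppa4 m-z+ and 11 in WT polyA RNA, 6 of the 140 calls were lost, and no genotype comparison gained one. Without counts the depth is unknown. With 2 or 3 libraries a group, the median SE of a member, 0.25 in total RNA and from 0.43 to 0.53 in libraries of polyA RNA, limits what could be detected.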
